A study of Medicago ruthenica with 9 samples.

Results

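Histones, cyclins and DNA replication proteins were described in *Medicago ruthenica* leaves as 149 unigenes out of the 44538 that were tested. A unigene is the assembled transcript that stands for a gene in this species, and members were chosen by annotation text alone: the description named a histone H1 to H4, an A-, B- or D-type cyclin, a cyclin-dependent kinase (CDK), a DNA replication licensing factor (MCM) or proliferating cell nuclear antigen (PCNA), and the level reached at least 1 TPM in at least 3 libraries. TPM is a transcript abundance per unit of length, scaled to the same total in every library. The text matched 171 unigenes, of which 22 stayed under the minimum. At that limit, an H3 unigene, DN20270_c0_g1, was just inside with 1.02 TPM in the third of its libraries by level, and a CDK-related unigene, DN25209_c0_g3, just outside with 0.99 TPM. The rule itself uses no expression difference between groups, but it was set with earlier results of these data known. Its minimum can also be met through a single group.

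The 9 libraries came from leaves of seedlings that were 4 weeks old when they were split into groups, 3 libraries each. RW plants had 15 days without water and were then rewatered to soil saturation, with leaves taken 2 days later. DS plants had the same 15 days without water, which left 20% relative soil moisture, and CK plants were watered every 3 days to stay above 80%, with DS and CK leaves taken on day 15. All plants were of a single cultivar, grew 8 to a pot and received no nutrients, and whether the 3 biological replicates of a group were separate pots is not stated. The p-values therefore reflect variation among the sequenced libraries, which may be partly technical.

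Histones package DNA into nucleosomes, and a cell that copies its genome must make new histones in step with the new DNA. Cyclins activate CDKs at set points of the cell cycle, the KRP and SIAMESE-RELATED (SMR) proteins inhibit them, the MCM proteins open DNA at replication origins, and PCNA clamps the polymerase to its template. In leaves these genes mark cell division and also endoreduplication, in which DNA is copied without division, and growing leaves carry far more of both than mature ones. Some histone variants, such as H3.3 and H2A.Z, are also made outside DNA replication and remain expressed in cells that no longer divide.

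Of the members, 86 were histones and 63 were not. The histones comprised 5 H1, 20 H2A, 12 H2B, 29 H3 and 20 H4 unigenes. The others comprised 10 A-type, 2 B-type and 10 D-type cyclins, 9 CDK inhibitors, 1 CDK regulatory subunit, 21 other CDKs or CDK-related proteins, 8 MCM unigenes, 1 PCNA and 1 calcyclin-binding protein, which matched by its name only and is not a cyclin. Histone unigenes were short, with a median length of 386.5 bp against 1040 bp for the other members and 588 bp for all tested unigenes. The closest annotated protein was from *Medicago* for 22 of the 86 histones and for 52 of the other 63 members. Members fell into 94 Trinity components (groups of unigenes that share assembled sequence), 27 of which held 2 or more members and 82 members in all, so that copies within a component may share reads. In total, 112 members were above 0 TPM in all 9 libraries, 79 averaged at least 5 TPM and 10 averaged at least 100 TPM. The common prefix TRINITY_ of the identifiers is left out here.

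Several facts of the libraries touch what follows. Each library summed to between 994748 and 996266 TPM and the table holds no read counts per unigene, so the counting error of single values could not be computed. RW replicate 2 stood apart: 3618 unigenes (6.90% of the table) had at least 5 TPM there and under 0.5 TPM in the other 8 libraries. Among the text matches, 12 were of that kind (7.02% of the 171, near the share of the table). By that definition all 12 had to fall under the minimum. Of the 12, 10 were histones, and they had 6.12 to 215.56 TPM in RW replicate 2. Of 46 markers of xylem and secondary wall, 17 were lower in DS vs. CK (37%, against 2.57% of all tested) and none was higher. That count was 6 with median-of-ratios scaling, 8 with quantile normalization, 7 with the pair alone, 4 with the replicate block or without RW replicate 3 and 0 without DS replicate 1 or 2 or CK replicate 2 or 3. Their summed level was 287 to 906 TPM in RW, 59.0 to 408 TPM in DS and 660 to 2120 TPM in CK. The 27 markers of photosynthetic leaf cells summed to 56099 to 78755 TPM in RW, 31095 to 88239 TPM in DS and 66017 to 90149 TPM in CK. In DS vs. CK, 18 of them were below 0 (median log2 fold change -0.70, against -0.19 for all tested). By the call defined below, 1 was lower (3.7%, against 2.57%) and 1 higher (3.7%, against 2.39%). In RW vs. DS, 1 was lower (3.7%, against 2.15%) and none higher. The 10 unigenes on the shoot meristem list, mostly class II KNOX genes that mature tissue also expresses, summed to 278 to 348 TPM in RW, 254 to 337 TPM in DS and 262 to 294 TPM in CK, and none was described as SHOOT MERISTEMLESS or WUSCHEL. None of the 10 was called in DS vs. CK, and 1, a KNAT4 unigene, was lower in RW vs. DS (10%, against 2.15% of all tested). The part of these marker levels in the results below was not tested. In leaf RNA, fewer dividing cells and less of a transcript in each cell cannot be told apart.

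The first question was whether 15 days without water changed the members (DS vs. CK). Few members changed, and most of the called ones were lower in DS. A member was called when limma's adjusted p, over all 44538 unigenes, was under 0.05 and the log2 fold change on the log2(TPM + 1) scale exceeded 1 in size. In DS, 5 members fell (3.36% of the 149, against 2.57% of all tested unigenes) and 2 rose (1.34%, against 2.39%). In either direction 4.96% of all tested unigenes were called, so the members' share was near the background. The 5 lower ones were a histone H2A, a histone H3.2, a histone H2B, the D-type cyclin CYCD1-1 and the A-type cyclin CYCA2-4, and the 2 higher ones were the CDK inhibitor SMR6 and a second H2A. That second H2A reached the minimum only through its DS libraries, so the filter admitted it for its DS level. With median-of-ratios scaling, the split was 2 higher and 3 lower. Leaving out a single library gave 1 higher throughout, and gave 8 lower without RW replicate 2, 3 without RW replicate 3, DS replicate 3 or CK replicate 3, 2 without DS replicate 2 or CK replicate 1, and 1, the H2A, without CK replicate 2.

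Below the threshold for a call, members lay mostly on the lower side in DS, as did the tested unigenes in general. The log2 fold change was below 0 for 105 members (70.5%, against 62.4% of all tested) and above 0 for 44, with a median of -0.30, against -0.19 for all tested unigenes. With median-of-ratios scaling 91 were below 0 (61.1%, against 53%) with a median of -0.17, and with quantile normalization 93 (62.4%, against 52.7%) with a median of -0.18. Without DS replicate 2 or 3, the share of members below 0 (62.4% and 58.4%) was no higher than that of all tested (63.4% and 59.4%). All 3 DS libraries were below all 3 CK libraries for 33 members (22.1%, against 18.1% of all tested) and above them for 11 (7.38%, against 8.86%). With an unadjusted p in place of the adjusted one, 15 members were lower (10.1%, against 8.94%) and 2 were higher (1.34%, against 5.34%). With no fold limit, 27 members had an unadjusted p under 0.05 on the lower side (18.1%, against 13.6%) and 7 on the higher side (4.7%, against 7.04%). By role, the median log2 fold change was -0.80 for MCM, -0.55 for B-type, -0.41 for A-type and -0.37 for D-type cyclins, -0.40 for H2B, -0.30 for H4, -0.28 for CDK inhibitors, -0.25 for other CDKs, -0.23 for H3, -0.13 for H1 and -0.06 for H2A. Histones as a whole had a median of -0.25 and the other members -0.36. The medians of H1 and H2A were above 0 with median-of-ratios scaling (0.06 and 0.04), as was that of H2A with quantile normalization (0.14), while the other roles named here kept their sign under both scalings.

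The second question was how members stood after rewatering (RW vs. DS, which shares the DS libraries with the first comparison). RW leaves were harvested later than DS leaves, so rewatering and harvest day cannot be told apart in this comparison. In RW, 3 members were higher (2.01%, against 1.79% of all tested) and 1 was lower (0.671%, against 2.15%), where 3.94% of all tested unigenes were called in either direction. The higher ones were the same H2A unigene that had fallen in DS, a unigene matched to CYCA1-1 and an MCM6 unigene, and the lower one was the H2A that had risen in DS. The minimum admitted that last unigene through its DS libraries alone. With median-of-ratios scaling the split was 1 higher and 2 lower, and with quantile normalization 2 and 1. Leaving out a single library gave 1 or 2 higher and 0 to 2 lower, with 1 higher without any library other than RW replicate 2 or DS replicate 3, none lower without any RW replicate or DS replicate 1 or 3, and 2 lower without CK replicate 2. The median of the members was 0.11 and that of all tested unigenes 0.17, with 92 members above 0 (61.7%, as of all tested) and 57 below. The split was 74 above and 75 below with median-of-ratios scaling, where the members' median was -0.005, and 77 and 72 with quantile normalization, where it was 0.02. The median was 0.04 without RW replicate 3 or DS replicate 2, 0.05 without DS replicate 3, 0.21 without RW replicate 2 and 0.26 without DS replicate 1. All 3 RW libraries were above all 3 DS libraries for 17 members (11.4%, against 15.7%) and below for 13 (8.72%, against 8.01%). With an unadjusted p, 5 members were higher (3.36%, against 7.07%) and 3 were lower (2.01%, against 4.95%), and with no fold limit 11 were on each side (7.38%, against 11.5% higher and 6.73% lower of all tested).

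In RW vs. CK, which likewise compares leaves from different harvest days, no member was called by limma, and across all tested unigenes 0% were called higher and 0.00225% lower. At an unadjusted p under 0.05, 11 members (7.38%, against 3.5% of all tested) had lower and 0 (against 3%) had higher levels in RW, and with the fold limit added 5 were lower (2.4% of all tested were). RW lay wholly below CK for 15 members (10.1%, against 6.44%) and wholly above for 4 (2.68%, against 5.35%). The median of the members was -0.17 and that of all tested unigenes -0.02, with 94 members below 0 (63.1%, against 52.1%). With median-of-ratios scaling or quantile normalization 91 members were below 0 (61.1%, against 49.4% and 50%). The median was -0.41 for H2B and -0.39 for D-type cyclins. Histones as a whole had a median of -0.28 and the other members -0.07. The lowest p of the members in this comparison belonged to the H3.2 unigene DN14646_c0_g1 (log2 fold change -1.30, limma adjusted p = 0.69).

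**Figure D1:**
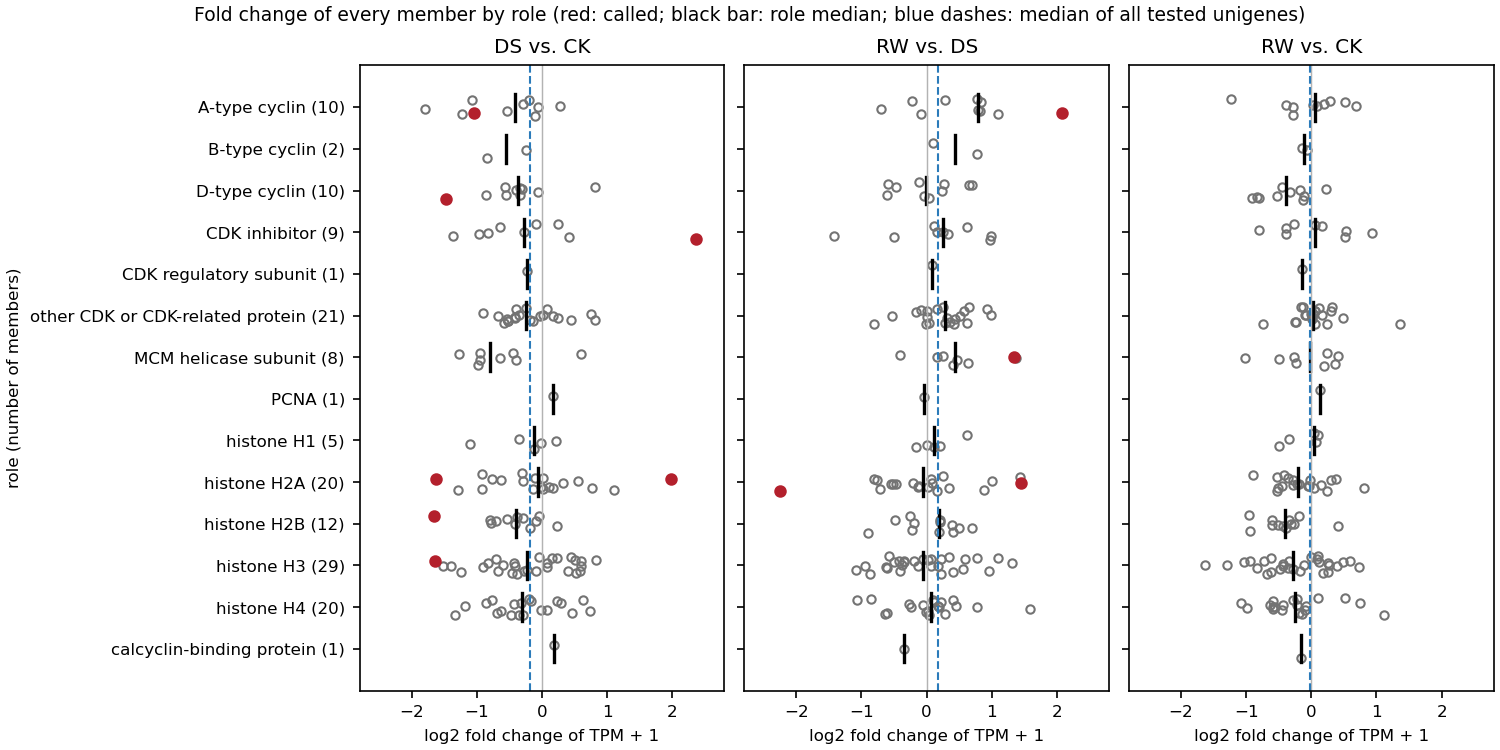
Each circle is a member, placed by its log2 fold change of TPM + 1 (x axis) in its role (y axis), in DS vs. CK, RW vs. DS and RW vs. CK from left to right. Red circles are called members, black bars are role medians and the blue dashed line is the median of all tested unigenes (-0.19, 0.17 and -0.02), and red circles appear in the first 2 comparisons and not in RW vs. CK.

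Among the cyclins, the A-type cyclin CYCA2-4 fell in DS. In *Arabidopsis*, A2-type cyclins bind mitotic CDKs and hold off endoreduplication. The CYCA2-4 unigene DN23136_c0_g2 had 26.4, 21.8 and 22.3 TPM in RW replicates 1 to 3, 10.9, 19.0 and 11.2 TPM in DS replicates 1 to 3 and 24.8, 34.9 and 27.0 TPM in CK replicates 1 to 3. Every DS library was below every RW and CK library. The log2 fold change was -1.05 ± 0.25 (SE) in DS vs. CK (limma adjusted p = 0.0404; 13.7 ± 4.57 TPM in DS and 28.9 ± 5.30 TPM in CK, SD, n = 3 each), and 0.77 in RW vs. DS, which did not pass (adjusted p = 0.126). The DS vs. CK call was lost without any one of RW replicates 1 and 3, DS replicates 1 and 3 or any CK replicate (adjusted p = 0.0579 to 0.132), and under 5 of 8 other settings, both scalings among them. A second A2-4 unigene, DN16535_c0_g1, had 3.35 to 6.51 TPM over the 9 libraries and a DS vs. CK log2 fold change of -0.20.

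The most abundant A-type match was DN26163_c1_g1, a 3546 bp unigene whose SwissProt match is cyclin-A1-1 and whose closest protein is uncharacterized, so that its identity as a cyclin is uncertain. It had 156, 285 and 171 TPM in RW, 43.3, 21.4 and 102 TPM in DS and 171, 121 and 203 TPM in CK. DS was below both other groups in every library, and DS replicate 3 lay closest to the lowest CK library. RW vs. DS was 2.08 ± 0.49 (limma adjusted p = 0.0486; 204 ± 70.5 TPM in RW and 55.7 ± 41.8 TPM in DS, SD, n = 3 each). The same unigene missed the call in DS vs. CK (-1.79, adjusted p = 0.070). Without DS replicate 3, both differences were called (2.65, adjusted p = 0.0103 and -2.36, adjusted p = 0.0151), and without any other library the RW vs. DS call was lost (adjusted p = 0.0659 to 0.136), as it was under 5 of 8 other settings. The remaining 9 A-type unigenes summed to 46.7, 47.5 and 36.5 TPM in RW, 27.8, 32.2 and 24.8 TPM in DS and 41.9, 62.1 and 38.7 TPM in CK, with DS wholly below the other groups. CYCA2-4 gave the largest share of that sum.

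The D-type cyclins couple growth signals to entry into the cell cycle by activating the CDK that phosphorylates the retinoblastoma-related protein. CYCD1-1 was the D-type cyclin that fell in DS. The unigene DN16008_c0_g3 had 8.28, 3.97 and 5.32 TPM in RW, 4.92, 1.90 and 3.45 TPM in DS and 9.91, 11.7 and 10.96 TPM in CK. DS and RW overlapped with each other and both lay wholly below CK. DS vs. CK was -1.48 ± 0.34 (limma adjusted p = 0.0379; 3.42 ± 1.51 TPM in DS and 10.9 ± 0.909 TPM in CK, SD, n = 3 each), and the call was lost without RW replicate 3, DS replicate 2 or 3 or any CK replicate (adjusted p = 0.0624 to 0.120), and under 4 of 8 other settings. RW vs. DS was 0.64 and RW vs. CK was -0.84, and neither passed.

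Of the other 9 D-type unigenes, none passed the test. The most abundant was CYCD3-3, DN12366_c0_g1, with 18.1, 10.3 and 13.0 TPM in RW, 13.8, 14.9 and 15.1 TPM in DS and 22.6, 21.03 and 13.9 TPM in CK, and its groups overlapped. CYCD4-1, DN23731_c0_g2, was the D-type unigene with a log2 fold change above 0 in DS vs. CK (2 were above 0 with either scaling). It had 3.77, 4.85 and 4.15 TPM in RW, 9.95, 7.47 and 4.33 TPM in DS and 3.63, 3.81 and 3.07 TPM in CK (0.82, adjusted p = 0.181). CYCB1-2, DN12729_c0_g1, the B-type cyclin with the higher level, had 85.8, 98.2 and 98.1 TPM in RW, 82.3, 96.9 and 83.7 TPM in DS and 127, 84.0 and 105 TPM in CK (-0.25, not called).

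Of the 9 CDK inhibitors, 1 passed the test. SMR6, of the SIAMESE-RELATED family whose founding *Arabidopsis* member promotes endoreduplication, was the member with the largest called increase in DS. The SMR6 unigene DN14171_c0_g1 had 64.1, 37.6 and 69.0 TPM in RW, 122, 210 and 131 TPM in DS and 42.3, 12.4 and 43.0 TPM in CK. All DS libraries were above all RW and CK libraries, which overlapped each other. DS vs. CK was 2.36 ± 0.46 (limma adjusted p = 0.0207; 154 ± 48.8 TPM in DS and 32.5 ± 17.5 TPM in CK, SD, n = 3 each), and the call was lost without DS replicate 2 (adjusted p = 0.0763). RW vs. DS was -1.43 and did not pass (adjusted p = 0.132), but was called without CK replicate 2 (adjusted p = 0.0376), since all groups share an estimate of the spread.

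A relative, SMR15, lay on the other side. DN15426_c1_g1 had 39.2, 14 and 31.6 TPM in RW, 10.2, 12.3 and 16.3 TPM in DS and 29.8, 36.6 and 37.7 TPM in CK. The DS libraries were below CK and overlapped RW only through RW replicate 2. The DS vs. CK difference of -1.37 missed the call (limma adjusted p = 0.0532), and it was called without RW replicate 2 (adjusted p = 0.0105) or RW replicate 1 (adjusted p = 0.0454), with a minimum of 5 TPM (adjusted p = 0.0405), with the pair alone (adjusted p = 0.0231) and summed by component (adjusted p = 0.0427). Under the other alternatives it missed the call (adjusted p = 0.0562 to 0.155). RW vs. DS was 0.98 (adjusted p = 0.169), and it was called only without RW replicate 2 (adjusted p = 0.0216). Both SMR13 unigenes were under 14 TPM in each library and uncalled, with fitted DS vs. CK differences of 0.42 and 0.24.

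The KRP inhibitors, which bind cyclin-CDK complexes directly, had lower fitted levels in DS in all 5 unigenes, and none passed the test. The median was -0.64 in DS vs. CK and 0.33 in RW vs. DS, where all 5 were above 0. With either scaling 4 of the 5 were below 0 in DS vs. CK. KRP4, DN13307_c0_g1, had 14.8, 13.2 and 21.2 TPM in RW, 8.36, 6.61 and 7.84 TPM in DS and 20.4, 9.82 and 14.5 TPM in CK. Each DS library lay below RW and CK, with -0.83 in DS vs. CK (limma adjusted p = 0.136) and 0.99 in RW vs. DS (adjusted p = 0.0970). KRP7, DN14579_c1_g2, the most abundant, had 58.5, 65.1 and 65.1 TPM in RW, 46.0, 56.6 and 47.1 TPM in DS and 64.4, 54.2 and 63.0 TPM in CK. Summed, the KRP unigenes gave 87.7, 99.0 and 98.9 TPM in RW, 64.6, 74.3 and 65.9 TPM in DS and 98.6, 83.0 and 93.7 TPM in CK, and the 4 SMR unigenes gave 107, 68.2 and 107 TPM in RW, 141, 232 and 154 TPM in DS and 76.8, 54.6 and 89.4 TPM in CK. The DS libraries were wholly lower than the others in the KRP sum. They were wholly higher in the SMR sum through SMR6 alone: the other 3 SMR unigenes, of which SMR15 was the most abundant, summed to 43.3, 30.6 and 37.7 TPM in RW, 19.4, 21.8 and 22.9 TPM in DS and 34.5, 42.2 and 46.5 TPM in CK. That sum was wholly lower in DS through SMR15, since both SMR13 unigenes were above 0 in DS vs. CK. This grouping by family was made after the values were seen.

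**Figure D2:**
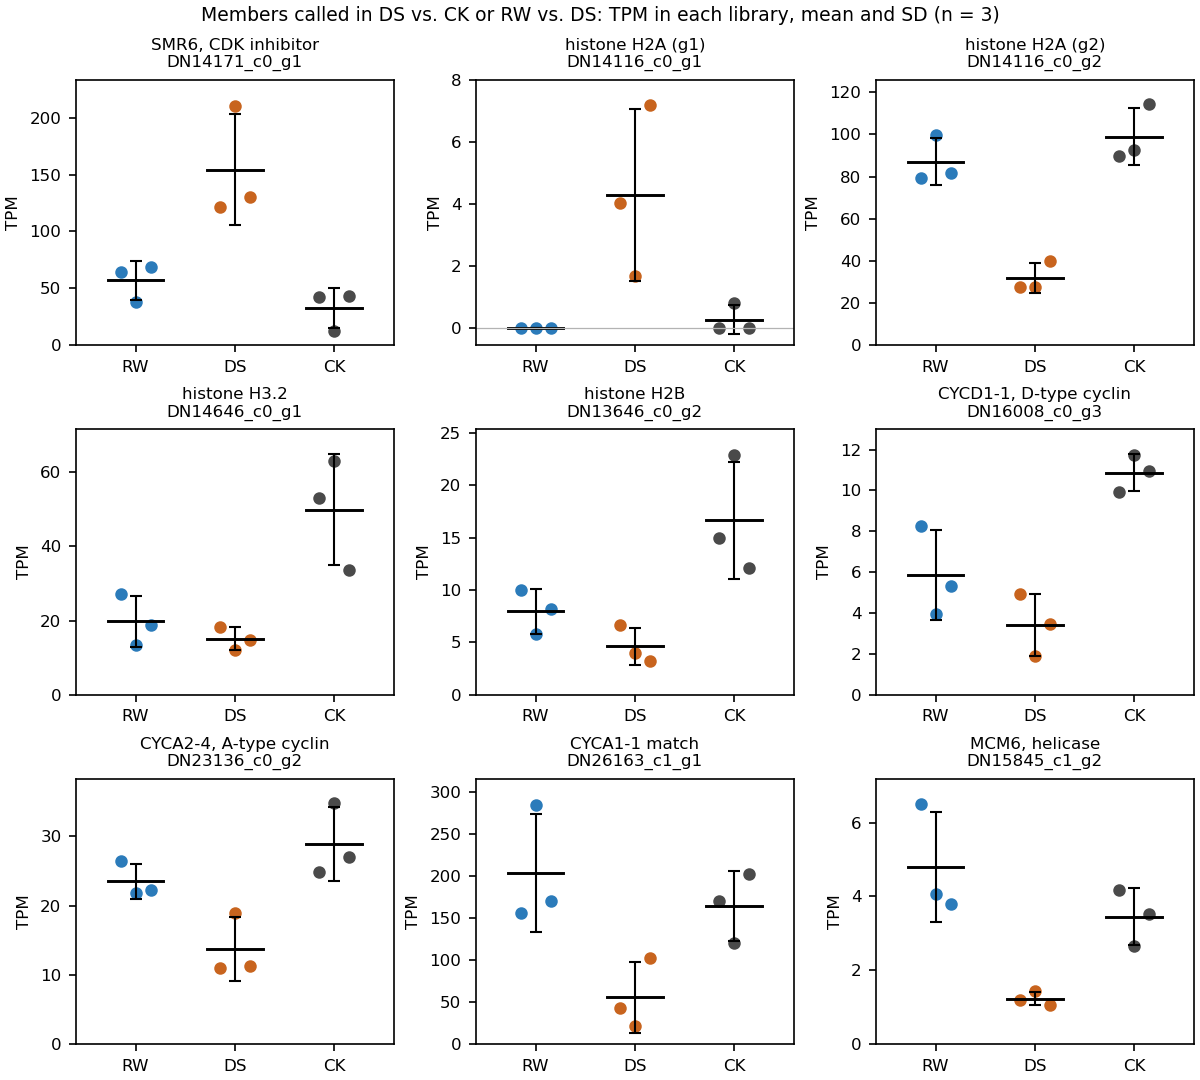
TPM (y axis) of the 9 members called in DS vs. CK or RW vs. DS, in the libraries of RW, DS and CK (x axis), with points for libraries and bars for the mean and SD (n = 3). SMR6 and the H2A DN14116_c0_g1 are highest in DS; the H2A DN14116_c0_g2, CYCA2-4, the CYCA1-1 match and MCM6 are lowest in DS with RW near CK, while for H3.2, H2B and CYCD1-1 the RW libraries stay below CK.

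None of the kinases themselves passed the test. The 21 other CDK unigenes, mostly of the CDKC, CDKE and CDKG classes that act in transcription and RNA processing and of the CDKD and CDKF classes that activate other CDKs, summed to 416 to 456 TPM in RW, 387 to 523 TPM in DS and 426 to 438 TPM in CK. Their log2 fold changes in DS vs. CK ran between -0.91 and 0.81. The highest belonged to a CDKG-2 unigene, DN25702_c1_g2, with 30.5, 31.2 and 35.3 TPM in RW, 50.5, 77.7 and 46.9 TPM in DS and 29.9, 30.9 and 35.7 TPM in CK. DS was wholly above both other groups, with 0.81 in DS vs. CK (limma adjusted p = 0.0643) and -0.80 in RW vs. DS (adjusted p = 0.0780). CDKF-4, DN23235_c0_g1, had 55.0 to 62.7 TPM in RW, 60.3 to 68.3 TPM in DS and 57.6 to 61.8 TPM in CK. CKS1, the regulatory subunit that docks on CDKs, had 48.3, 54.4 and 50.7 TPM in RW, 53.7, 43.5 and 48.3 TPM in DS and 61.6, 58.4 and 50.4 TPM in CK. A unigene with the symbol CDK1, DN3411_c0_g1, matched the text but stayed under the minimum. The rule does not reach those A- and B-class CDKs, which drive the cycle, that the files name cell division control protein 2, nor cyclins named G2/mitotic-specific. A list of these 9 unigenes, added after the members were seen, had none called and a median of -0.34 in DS vs. CK and 0.59 in RW vs. DS. Their summed level was 60.1 to 74.4 TPM in RW, 45 to 47 TPM in DS and 58.3 to 71.0 TPM in CK.

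The MCM helicase subunits were low in every library, and their sum was 19.4, 25.0 and 10.8 TPM in RW, 6.73, 9.57 and 10.9 TPM in DS and 21.2, 23.3 and 19.5 TPM in CK. In the sum, DS was below CK in every library, and RW replicate 3 was at the level of DS. One MCM6 unigene, DN15845_c1_g2, had 6.51, 4.06 and 3.80 TPM in RW, 1.20, 1.43 and 1.07 TPM in DS and 4.18, 2.66 and 3.53 TPM in CK. The DS libraries were again wholly below both. RW vs. DS was 1.35 ± 0.32 (limma adjusted p = 0.0486; 4.79 ± 1.5 TPM in RW and 1.23 ± 0.182 TPM in DS, SD, n = 3 each) and DS vs. CK was -0.99 (adjusted p = 0.115). The RW vs. DS call was lost without any one of the 9 libraries (adjusted p = 0.0659 to 0.153), and under 6 of 7 other settings. MCM5, DN23593_c0_g1, had 4.82, 2.32 and 2.17 TPM in RW, 2.35, 4.30 and 1.04 TPM in DS and 3.79, 10.6 and 8.16 TPM in CK, and its difference of -1.27 in DS vs. CK was not called (adjusted p = 0.165). The groups of PCNA, DN24314_c0_g2, overlapped, and it had 6.19, 8.27 and 7.77 TPM in RW, 7.03, 9.26 and 6.61 TPM in DS and 7.05, 7.89 and 5.21 TPM in CK (0.17, not called).

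**Figure D3:**
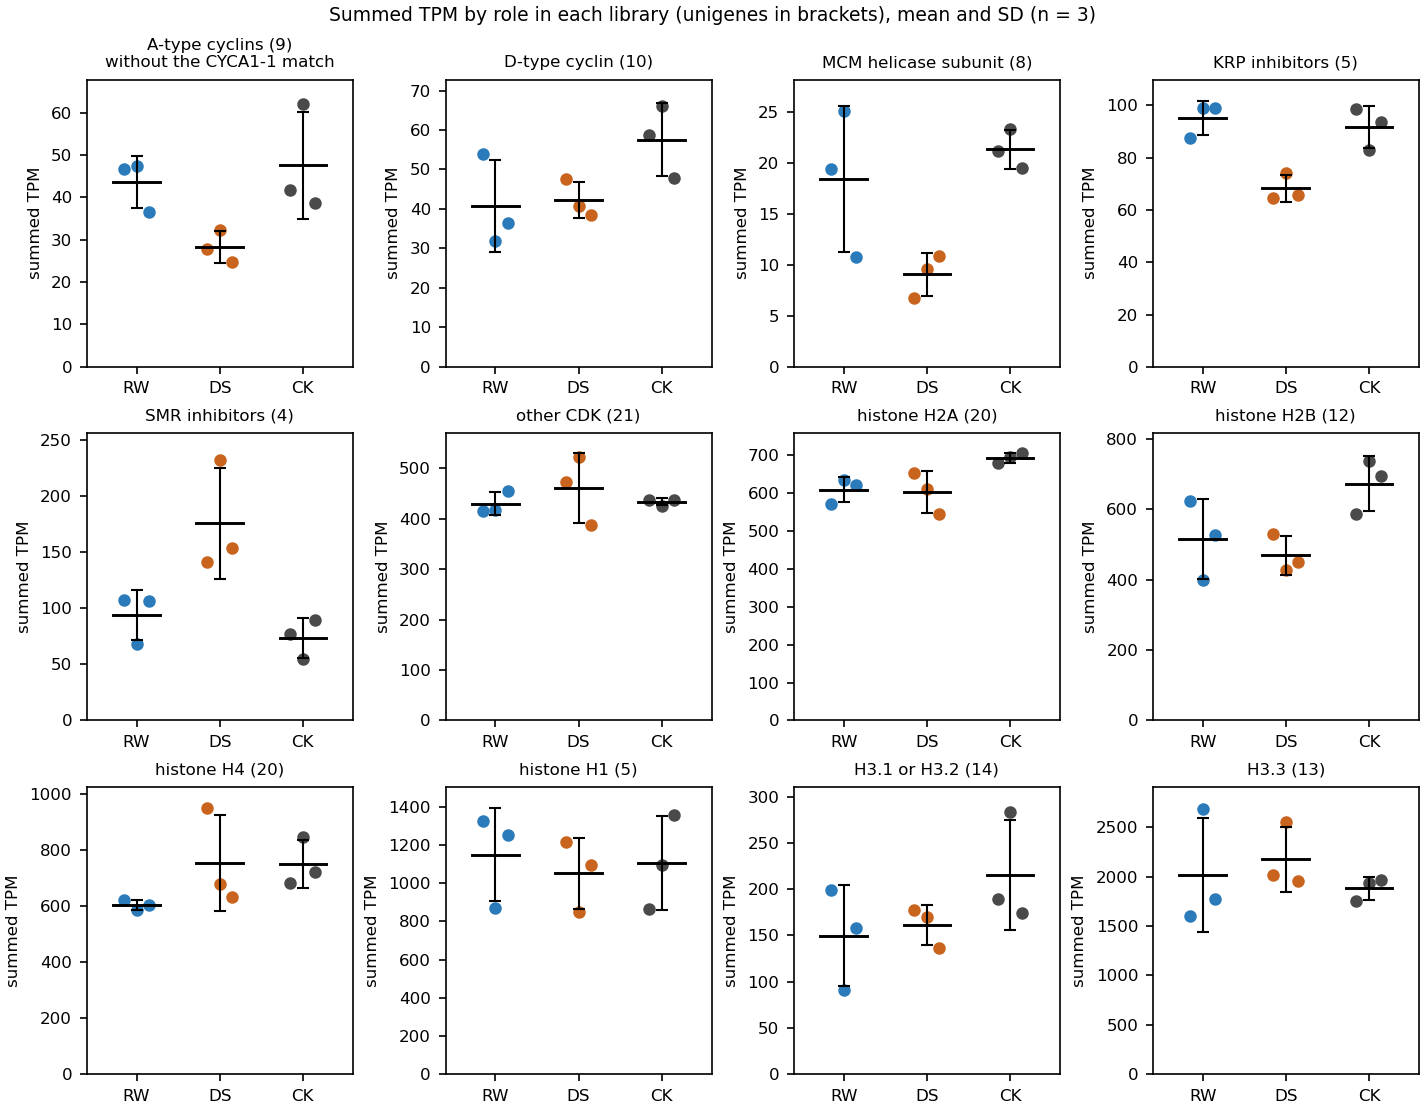
Summed TPM (y axis) of the members of each role in the libraries of RW, DS and CK (x axis), with points for libraries, bars for the mean and SD (n = 3) and the number of unigenes in brackets. The A-type cyclins without the CYCA1-1 match, D-type cyclins, MCM, KRP, H2A and H2B sums are wholly lower in DS than in CK, the SMR sum is wholly higher through SMR6, and the sums of H1, H4, H3.1 or H3.2, H3.3 and other CDKs overlap between DS and CK.

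The histones summed to far more RNA than the other members, 5595 to 6120 TPM in RW, 5690 to 6678 TPM in DS and 5899 to 6654 TPM in CK, with no separation of the groups. A single H2A unigene gave the firmest result among the members. DN14116_c0_g2 (675 bp, an H2A.3 match, a core histone of the nucleosome) had 79.6, 99.98 and 81.7 TPM in RW, 27.8, 27.4 and 40.1 TPM in DS and 90.0, 92.7 and 114 TPM in CK. DS was wholly below RW and CK. DS vs. CK was -1.62 ± 0.21 (limma adjusted p = 0.00256; 31.8 ± 7.23 TPM in DS and 99.0 ± 13.4 TPM in CK, SD, n = 3 each) and RW vs. DS was 1.44 ± 0.21 (adjusted p = 0.00515; 87.1 ± 11.2 TPM in RW). Both calls were kept under each alternative that was tried, with adjusted p = 0.00195 to 0.0167 in DS vs. CK and 0.00375 to 0.0243 in RW vs. DS. RW vs. CK was -0.18.

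Its neighbour in the same component, DN14116_c0_g1, moved the other way at a far lower level. This unigene is 245 bp long and its closest protein is from *Ensete*. It was listed at 0 TPM in all 3 RW libraries, had 4.02, 1.66 and 7.18 TPM in DS, and had 0, 0.79 and 0 TPM in CK. It met the minimum of 1 TPM in 3 libraries through DS alone, so its calls are not independent of the filter. The call in DS vs. CK (1.98 ± 0.47, limma adjusted p = 0.0441) was lost without any one library other than DS replicate 2 (adjusted p = 0.0543 to 0.133), and the call in RW vs. DS (adjusted p = 0.0297) was lost without DS replicate 1 or 3 or any RW replicate (adjusted p = 0.0737 to 0.0932). They were also lost under 5 and 4 of 7 other settings. Added up, the 2 unigenes fell in DS (-1.46, adjusted p = 0.00378) and were higher in RW vs. DS (1.27, adjusted p = 0.00804).

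The other 18 H2A unigenes were not called, and the abundant ones lay on both sides of 0 in DS vs. CK. DN18906_c0_g1, the most abundant of them in DS, had 127, 93.9 and 139 TPM in RW, 224, 215 and 170 TPM in DS and 115, 170 and 134 TPM in CK (0.55 in DS vs. CK, limma adjusted p = 0.213), and DN18906_c0_g2 had 34.8, 48.4 and 42.2 TPM in RW, 68.6, 88.1 and 53.6 TPM in DS and 40.0, 44.4 and 36.3 TPM in CK (0.76, adjusted p = 0.0850). DN20030_c0_g1 had 134, 79.7 and 118 TPM in RW, 85.7, 86.7 and 99.7 TPM in DS and 156, 131 and 182 TPM in CK (-0.77, adjusted p = 0.0884). An H2A.Z-type unigene, DN15277_c0_g2, which belongs to a variant deposited outside replication, had 78.8, 157 and 93.2 TPM in RW, 66.8, 37.9 and 70.4 TPM in DS and 113, 117 and 93.0 TPM in CK (-0.92, adjusted p = 0.128). The 6 unigenes described as H2A variants summed to 181 to 298 TPM in RW, 159 to 182 TPM in DS and 214 to 264 TPM in CK, with DS wholly below CK, and none of the 6 was called.

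Histone H2B, the partner of H2A in the nucleosome, was below 0 in DS vs. CK in 11 of 12 unigenes (10 with median-of-ratios scaling and 8 with quantile normalization), with 1 called. Of all tested unigenes 62.4% were below 0 (53% and 52.7% with these scalings). DN13646_c0_g2 (304 bp, matched to At5g22880) had 9.96, 5.75 and 8.15 TPM in RW, 6.62, 3.94 and 3.25 TPM in DS and 14.9, 22.9 and 12.1 TPM in CK. DS was wholly below CK and overlapped RW. DS vs. CK was -1.65 ± 0.33 (limma adjusted p = 0.0225; 4.6 ± 1.78 TPM in DS and 16.7 ± 5.62 TPM in CK, SD, n = 3 each), and the call was lost without DS replicate 2 or 3 or CK replicate 1 or 2 (adjusted p = 0.0551 to 0.0794). The most abundant H2B, DN22108_c0_g1, had 326, 189 and 279 TPM in RW, 181, 173 and 239 TPM in DS and 283, 402 and 335 TPM in CK (-0.78, adjusted p = 0.114), and DN16003_c1_g1 had 96.9, 93.2 and 93.0 TPM in RW, 83.9, 71.1 and 61.7 TPM in DS and 107, 133 and 113 TPM in CK (-0.70, adjusted p = 0.0563). Both lay wholly below CK in DS without passing the fold limit or the test. The H2B sum was 622, 398 and 527 TPM in RW, 530, 427 and 450.0 TPM in DS and 585, 738 and 696 TPM in CK.

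Among the H3 unigenes, the replication-linked type held the called member. DN14646_c0_g1, a 670 bp H3.2 unigene, had 27.2, 13.5 and 18.8 TPM in RW, 18.3, 12.1 and 14.8 TPM in DS and 53.2, 63.0 and 33.6 TPM in CK. DS and RW were both wholly below CK and overlapped each other. DS vs. CK was -1.64 ± 0.31 (limma adjusted p = 0.0179; 15.1 ± 3.11 TPM in DS and 49.9 ± 15.0 TPM in CK, SD, n = 3 each), and the call was lost without DS replicate 2 or CK replicate 1 or 2 (adjusted p = 0.0560 to 0.0684). RW vs. DS was 0.34. A neighbour in the component, DN14646_c0_g2, had 10.7, 6.12 and 15.1 TPM in RW, 37.0, 14.2 and 15.7 TPM in DS and 9.86, 11.7 and 11.3 TPM in CK. With both members of the component added up, the difference was -0.73 in DS vs. CK (adjusted p = 0.229), and the component of the called H2B, with 4 members, likewise gave -1.23 (adjusted p = 0.242), so that neither call stood at the level of the component. Both components hold unigenes of the DS replicate 1 group described below. The components of CYCA2-4 and CYCD1-1 were called lower (-1.01, limma adjusted p = 0.0328 and -1.24, adjusted p = 0.0361).

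By description, 14 H3 unigenes were named H3.1 or H3.2, which are made during replication, and 13 were named H3.3, the replacement type. The first kind was below 0 in DS vs. CK in 12 of 14 unigenes (median -0.55) and the second above 0 in 8 of 13 (median 0.15), a split that was chosen after the values were seen and was not tested. Of all tested unigenes 62.4% were below 0 and 37.6% above. The medians of the 2 kinds were -0.44 and 0.32 with median-of-ratios scaling, -0.38 and 0.18 with quantile normalization and -0.73 and 0.23 without DS replicate 1. Those without DS replicate 2 or 3 are not given here. The summed TPM overlapped between groups for both kinds: H3.1 or H3.2 gave 199, 91.2 and 159 TPM in RW, 177, 170 and 136 TPM in DS and 190, 283 and 174 TPM in CK, and H3.3 gave 1599, 2680 and 1771 TPM in RW, 2015, 2548 and 1959 TPM in DS and 1750, 1933 and 1967 TPM in CK. H3.1 or H3.2 was 11.1, 3.29 and 8.21% of the 2 kinds in RW, 8.09, 6.27 and 6.51% in DS and 9.78, 12.8 and 8.12% in CK. The other 2 H3 unigenes fell in neither kind and are left out of these shares. They summed to 659 to 886 TPM in RW, 873 to 1394 TPM in DS and 863 to 1150 TPM in CK. Nearly all of that was DN23514_c0_g1, with a mean of 967 TPM over the 9 libraries. The most abundant member of all, the H3.3 unigene DN19830_c0_g1, had 1110, 2081 and 1193 TPM in RW, 1312, 1816 and 1316 TPM in DS and 1334, 1275 and 1350 TPM in CK, with overlapping groups.

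H4 and the linker histone H1 had no called member. The H4 unigene with the lowest adjusted p, DN19843_c0_g1, had 88.3, 61.9 and 81.9 TPM in RW, 66.0, 69.9 and 66.4 TPM in DS and 99.1, 122.97 and 127 TPM in CK, and its difference of -0.77 in DS vs. CK had a limma adjusted p of 0.0512 and was under the fold limit. Among the H4 unigenes that passed the fold limit, DN12918_c0_g3 (-1.34, adjusted p = 0.0750) was called without CK replicate 1 (-1.72, adjusted p = 0.0312) and DN14642_c2_g1 (-1.18, adjusted p = 0.190) without RW replicate 2 (-1.18, adjusted p = 0.0462). DN20859_c0_g1, the most abundant H4, had 236, 284 and 226 TPM in RW, 455, 360 and 326 TPM in DS and 252, 310 and 261 TPM in CK, wholly higher in DS without passing (0.46, adjusted p = 0.227). H4 unigenes thus lay on both sides. The leading H1 unigene, DN24523_c0_g1, had 1024, 616 and 952 TPM in RW, 880, 594 and 745 TPM in DS and 648, 792 and 995 TPM in CK (-0.13), and a minor one, DN19726_c0_g2, had 6.47, 4.17 and 3.68 TPM in RW, 1.94, 2.54 and 3.84 TPM in DS and 5.76, 9.25 and 6.31 TPM in CK (-1.11, adjusted p = 0.0881).

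A group of histone unigenes set DS replicate 1 apart from the other libraries. There, 18 members were highest at 2 or more times the level of the next library, which is 12.1% of the members against 1.63% of all tested unigenes, and all 18 were core histones (20.9% of the 86 histones). The other libraries each held 0 to 6 such members, the most in RW replicate 2. The 18 had 4.61 to 37.2 TPM in DS replicate 1, and 12 of them were listed at 0 TPM in DS replicate 3. They were 203 to 661 bp long, and the closest protein was from *Medicago* for 2 of the 18 and for 20 of the other 68 histones. An H4 unigene, DN17980_c0_g1, had 5.33, 3.70 and 11.9 TPM in RW, 37.2, 3.29 and 0 TPM in DS and 4.89, 7.87 and 10.4 TPM in CK, and an H2A unigene, DN12559_c0_g1, had 2.25, 1.76 and 7.18 TPM in RW, 32.1, 1.17 and 0.56 TPM in DS and 4.02, 4.84 and 6.30 TPM in CK.

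These 18 summed to 40.2, 29.5 and 77.7 TPM in RW, 267, 29.4 and 18.2 TPM in DS and 47.1, 57.1 and 56.2 TPM in CK. DS replicate 1 was therefore the highest library and DS replicate 3 the lowest. Chosen by their values, they were not tested as a group. Their median log2 fold change in DS vs. CK was -0.11, against -0.31 for the histones outside them. Without DS replicate 1, the median of all members was -0.47 in DS vs. CK and 0.26 in RW vs. DS, and 4 members were called lower and 1 higher in DS vs. CK. The 18 were chosen as high in that library, so leaving it out lowers their fitted DS level by construction. Without DS replicate 2 or 3 instead, the median of all members in DS vs. CK was -0.209 and -0.215, against -0.21 and -0.15 for all tested unigenes. The histones, which include those 18, moved more than the other members. Without DS replicate 1, 66 of 86 were below 0 in DS vs. CK (median -0.62), against 57 of 86 with it (median -0.25), while the median of all tested unigenes was -0.21 without it. For H2A the median was -0.70, for H2B -0.77 and for H4 -0.82 without DS replicate 1. The members that are not histones were at -0.35 without it and -0.36 with it. Histone medians without DS replicate 2 or 3 are not given here, so how they depend on those libraries is left unknown.

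**Figure D4:**
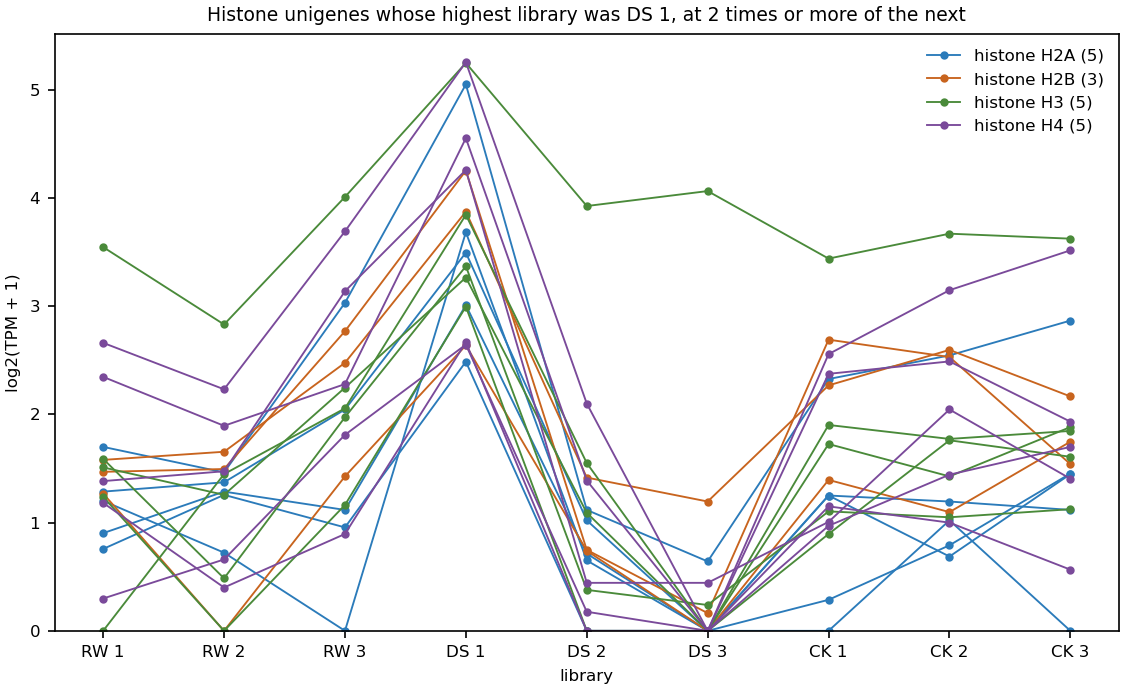
log2(TPM + 1) (y axis) of the 18 histone unigenes whose level in DS replicate 1 was 2 or more times that of any other library, across the 9 libraries (x axis), a line for each unigene coloured by histone class. The lines peak together in DS replicate 1 (4.61 to 37.2 TPM) and most drop in DS replicates 2 and 3, where 12 of the 18 are listed at 0 in replicate 3.

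Genes of the same processes that the rule does not reach were described from further lists. Of 62 replication fork and origin unigenes (polymerases, primase, origin recognition and loading factors) and 7 E2F or retinoblastoma-related regulators, none was called in any comparison, and at an unadjusted p under 0.05 the fork list was at or under the share of all tested unigenes in both directions. It had 7 lower (11.3%, against 13.6%) and 1 higher (1.61%, against 7.04%) in DS vs. CK, and 6 higher (9.68%, against 11.5%) and 1 lower (1.61%, against 6.73%) in RW vs. DS. The fork list summed to 573 to 640 TPM in RW, 468 to 535 TPM in DS and 541 to 645 TPM in CK, with DS wholly lowest. In RW vs. DS, 44 of its 62 unigenes were above 0, a larger share than the 61.7% of all tested. RW lay wholly above DS for 15 of the 62, a larger share than the 15.7% of all tested (6977 of 44538). RW lay wholly below DS for 2 of the 62, a smaller share than 8.01% (3569 of 44538). In DS vs. CK, 42 of the 62 were below 0, a larger share than the 62.4% of all tested. DS lay wholly below CK for 11 of the 62, near the 18.1% of all tested. DS lay wholly above CK for 1 of the 62, a smaller share than 8.86%. The 8 unigenes of deoxynucleotide supply, such as ribonucleotide reductase, were all below 0 in DS vs. CK (median -0.66, and 7 of 8 with quantile normalization), with none called and 2 lower at an unadjusted p under 0.05 (25%, against 13.6%). Their sum was 36.9, 41.6 and 40.4 TPM in RW, 24.7, 33.7 and 30.6 TPM in DS and 57.4, 50.9 and 43.8 TPM in CK, wholly lower in DS and in RW than in CK. Of 17 histone chaperone unigenes, none was called. At an unadjusted p under 0.05, 2 were higher (11.8%, against 7.04%) and 2 lower (11.8%, against 13.6%) in DS vs. CK.

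The 119 unigenes of mitosis and cytokinesis had a median of -0.34 in DS vs. CK and 0.24 in RW vs. DS, which became -0.19 and 0.10 with median-of-ratios scaling and -0.16 and 0.12 with quantile normalization. At an unadjusted p under 0.05, 24 were lower (20.2%, against 13.6% of all tested) and 2 higher (1.68%, against 7.04%) in DS vs. CK, and 8 were higher (6.72%, against 11.5%) and 2 lower (1.68%, against 6.73%) in RW vs. DS. They summed to 955 to 1041 TPM in RW, 828 to 889 TPM in DS and 1037 to 1236 TPM in CK, with DS wholly lowest. DS lay wholly below CK for 34 of the 119, a larger share than the 18.1% of all tested. DS lay wholly above CK for 6 of the 119, a smaller share than 8.86%. RW lay wholly above DS for 19 of the 119, near the 15.7% of all tested, and wholly below for 2, a smaller share than 8.01%. One was called lower in DS vs. CK (0.84%, against 2.57%) and none higher (against 2.39%): KIN4A, DN24424_c0_g1, a kinesin that moves along microtubules, had 16.3, 23.1 and 13.9 TPM in RW, 10.1, 9.32 and 9.02 TPM in DS and 17.0, 28.6 and 25.8 TPM in CK (-1.21 ± 0.26, limma adjusted p = 0.0272, lost without any DS replicate or CK replicate 2 or 3, adjusted p = 0.0675 to 0.105, and with a pseudocount of 5, where it was within the fold limit). KIN4A is in the list by its annotation text, and whether it acts in mitosis or cytokinesis was not tested. The list had 4 lower without CK replicate 1, and 2 without RW replicate 3, with a pseudocount of 0.1 or with a minimum of 5 TPM. With median-of-ratios scaling the DS vs. CK split turned to 0 lower and 1 higher, with KIN4A lost (-1.03, adjusted p = 0.0538) and APC2 called (1.33, adjusted p = 0.0364), and with quantile normalization it was 1 and 1. One was called lower in RW vs. DS (0.84%, against 2.15%) and none higher (against 1.79%): APC2, DN14055_c0_g1, a subunit of the ubiquitin ligase that triggers anaphase, had 3.23, 3 and 5 TPM in RW, 15.7, 11 and 7.54 TPM in DS and 3.47, 4.75 and 4.95 TPM in CK (-1.36 ± 0.32, adjusted p = 0.0478, lost without any one library other than DS replicate 3, adjusted p = 0.0625 to 0.151, and with a pseudocount of 5, no filter, the pair alone or the replicate block, adjusted p = 0.0534 to 0.105). With the pair alone or without CK replicate 3, the RW vs. DS split of the list turned to 1 higher and 0 lower.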

How the data were processed

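Poly(A) RNA of 9 leaf libraries was sequenced. The authors deposited a single table of TPM values with unigene lengths and annotation. The study's methods describe de novo assembly with Trinity and abundance from Salmon. HISAT2 2.0 and StringTie 1.3.0 also appear in the submitters' processing notes, with no role given. The table holds no read counts, so no counting interval was computed from it. Genome positions are not given because the unigenes were assembled without a genome.

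Of 52457 unigenes, the 44538 that reached 1 TPM in 3 or more libraries were tested with limma 3.58.1 and statmod 1.5.0 (R 4.3.3) on log2(TPM + 1). A single fit of 3 group means over 9 libraries was used, with a mean trend and robust variance moderation (6 residual and 3.54 prior degrees of freedom). Fold changes on this scale understate those of low unigenes. P-values were adjusted by Benjamini-Hochberg over all tested unigenes. With 3 against 3 libraries, exact permutation reaches no p under 0.1 and was not used. Tables and plots were made with Python 3.11.15, pandas 2.3.3 and matplotlib 3.10.9.

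Members, roles and further lists were matched by annotation text and were chosen with earlier results of these data known. Patterns for the GINS complex and HIRA were narrowed after their matches were seen. The text names called members, the 2 highest members of each role, those with the largest fold per role, PCNA, CDK inhibitors and called unigenes of the further lists, or part of these. DN19726_c0_g2, DN14646_c0_g2, DN16535_c0_g1, DN12918_c0_g3, DN14642_c2_g1, DN15277_c0_g2, DN18906_c0_g2, DN23731_c0_g2, the histones of DS replicate 1 and members next to the threshold were named after their values were seen. Other pseudocounts, filters, scalings, a replicate block and fits without each library were tried, and sums over the members of a component were added after seeing the data. The steps were tested on simulated data. The changes planted there were larger than most of those called here and avoided the lowest unigenes, so that run does not cover small changes or low levels.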

Additional observations from a re-analysis of the deposited data

How the results depend on the processing

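The counts of called members were small and moved with most settings. In DS vs. CK, 1 member was higher with a pseudocount of 0.1 or 5, without the filter, with a minimum of 5 TPM, with the 6 libraries of the pair alone, with a replicate block and summed by component. Lower members numbered 3 with a pseudocount of 5, with the replicate block and with median-of-ratios scaling, and 15 with an unadjusted p. In RW vs. DS, 1 member was higher with a pseudocount of 5, the pair alone, the block and median-of-ratios scaling, and 5 with an unadjusted p. None (0) was lower with a pseudocount of 0.1 or 5, a minimum of 5 TPM, the pair alone, the block and summed by component, 2 were with median-of-ratios scaling and 3 with an unadjusted p. In RW vs. CK, the unadjusted p gave 5 lower. Leaving out each library in turn gave 1 higher and 1 to 8 lower in DS vs. CK, the most without RW replicate 2 and the fewest without CK replicate 2, and 1 to 2 higher and 0 to 2 lower in RW vs. DS. The remaining settings stayed within 1.5 times of the counts, and no called value reversed. Among the values of single unigenes and the members' medians, 2449 kept their direction and side of the threshold or moved by less than the spread, 130 lost a call, 15 gained one, and 88 changed sign without a call or, for a median, moved by more than the spread. The cause of these changes was not tested. The pairing by replicate number was checked: deviations of same-numbered libraries correlated between -0.09 and 0.06, so the numbers do not pair the libraries, and the block fit gave 1 higher and 3 lower in DS vs. CK and 1 and 0 in RW vs. DS.

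Median-of-ratios scaling shifted the median of all tested unigenes in DS vs. CK to -0.05 and quantile normalization to -0.04, against -0.19 as deposited. Relative to that median, the members were at -0.13 and -0.14, against -0.11 as deposited. In RW vs. DS the members' own median was -0.005 with median-of-ratios scaling and 0.11 as deposited. TPM without counts limits how far differences of low unigenes can be read, as for the MCM unigenes, and reads shared between histone copies cannot be separated.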

Other observations

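Transcription factors that set leaf growth were measured beside the cell cycle genes. Of 35 unigenes of the growth-regulating factor (GRF), GRF-interacting and TCP families tested, 2 rose (5.71%, against 2.39% of all tested) and 2 fell (5.71%, against 2.57%) in DS vs. CK, and 1 was higher (2.86%, against 1.79%) and 2 were lower (5.71%, against 2.15%) in RW vs. DS. GRFs promote cell proliferation in young leaves. GRF1, DN22214_c0_g4, had 4.79, 2.37 and 3.99 TPM in RW, 0.36, 0.53 and 0.63 TPM in DS and 5.13, 3.23 and 2.98 TPM in CK. DS was wholly below both groups, with -1.64 in DS vs. CK (limma adjusted p = 0.0276, 0.0558 to 0.0841 without any one DS or CK replicate) and 1.61 in RW vs. DS, a call lost without RW replicate 1 or 3, CK replicate 2 or 3 or any DS replicate (adjusted p = 0.0532 to 0.113). GRF3, DN22214_c0_g3, had 6.48, 8.07 and 4.6 TPM in RW, 2.28, 2.13 and 2.75 TPM in DS and 7.65, 8.03 and 7.76 TPM in CK (-1.38 in DS vs. CK, adjusted p = 0.0208, 0.0573 to 0.0792 without DS replicate 1 or 2 or any CK replicate). Both DS vs. CK calls were also lost with the replicate block (adjusted p = 0.0572 for GRF1 and 0.0530 for GRF3) and with a pseudocount of 5, and GRF1 lost both its calls with quantile normalization (adjusted p = 0.0566 in DS vs. CK and 0.0551 in RW vs. DS). The RW vs. DS call of GRF1 was further lost with a pseudocount of 5, the pair alone and the block. Both GRF unigenes are of the same component and may share reads.

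The 2 that rose in DS were of the TCP family. TCP9, DN13544_c0_g2, had 22.3, 13.1 and 17.2 TPM in RW, 58.6, 48.2 and 73.7 TPM in DS and 18.3, 17.7 and 13.0 TPM in CK (1.81 in DS vs. CK, limma adjusted p = 0.00398), and its lower level in RW vs. DS was also called. TCP13, DN17916_c0_g1, a CIN-type TCP of the class that restrains proliferation in *Arabidopsis* leaves, had 29.9, 21.8 and 17.7 TPM in RW, 80.0, 54.9 and 72.8 TPM in DS and 13.4, 12.6 and 25.9 TPM in CK (2.00 in DS vs. CK, adjusted p = 0.00647, and -1.55 in RW vs. DS, adjusted p = 0.0228). Its RW vs. DS call was lost without RW replicate 2 or 3 or DS replicate 1 or 3 (adjusted p = 0.0663 to 0.0909). These shares rest on 1 or 2 unigenes each and were not tested.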
